A study of Mus musculus with 18 samples.

Results

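The lysyl oxidase family comprises 5 mouse genes, Lox and its relatives Loxl1, Loxl2, Loxl3 and Loxl4, and was followed in adipocytes exposed to 5 compounds or to vehicle. The genes were taken by symbol from the annotation of the array, and the family was selected on the differences from DMSO in earlier results of these same arrays, in which Lox was low. Differences from DMSO are therefore given for the family as a description with no test. Of the 5 genes, 4 had a probe carrying their symbol and 3 (Lox, Loxl1 and Loxl4) were among the 10958 genes tested. No probe carried the symbol or Entrez identifier of Loxl2, which was not analysed here.

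Lysyl oxidases are secreted copper enzymes that oxidise lysine side chains of collagen and elastin to aldehydes. The aldehydes then condense into the covalent cross-links that stiffen collagen fibrils and elastic fibres. Lox is made as a proenzyme and is cleaved outside the cell by the protease Bmp1, with fibronectin and periostin as docking partners. In adipose tissue Lox is known for its part in matrix stiffening and fibrosis, and fibroblast-like preadipocytes make much of the matrix on which it acts.

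The cells were 3T3-L1, a clonal line of mouse preadipocytes that becomes adipocytes in culture. After 7 days of differentiation they were treated for 24 hours. The groups received rosiglitazone at 100 nM, sodium diclofenac at 25 µM, indomethacin at 10 µM, ibuprofen at 75 µM, GQ16 at 10 µM, or the vehicle DMSO, which is the control. Rosiglitazone is a thiazolidinedione ligand of PPARγ, the master regulator of fat cell formation, and diclofenac, indomethacin and ibuprofen are non-steroidal anti-inflammatory drugs that inhibit cyclooxygenases. GQ16 is known here by its code name, and the series title asks how it and the anti-inflammatory drugs activate PPARγ. The concentrations differed, so each treatment was compared as given. Each group had 3 arrays. The labels do not say whether these came from separate cultures, so p-values measure the spread between samples, which may be technical.

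Values are log2 normalized intensities, and a difference of 1 on this scale is a doubling of intensity. All 18 arrays had the same distribution of values, with a median of 5.98, and on each array 42.1% of the 45281 probes lay above the background level of 6.18. The arrays lay on 3 slides, and all 3 ibuprofen arrays shared slide 2 with only 1 DMSO array. Slide 3 held no DMSO array. It held GQ16 replicates 2 and 3, indomethacin replicates 1 and 2, rosiglitazone replicate 1 and diclofenac replicate 3. Rosiglitazone replicate 1 lay farthest from its group, with a root mean square deviation of 0.286, and DMSO replicate 3 lay farthest within its group, at 0.207. Adipocyte markers were bright in all groups, with adiponectin (Adipoq) averaging 13.57 to 13.66 in the 5 compound groups and 13.40 in DMSO cells. Of 8 macrophage markers only Csf1r passed the filter for background, at 6.16 to 6.55 over all arrays.

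Lox was lower on every compound array than on every DMSO array. With rosiglitazone the 3 arrays read 11.46, 11.59 and 11.94. With diclofenac they read 12.06, 12.15 and 12.17, and with indomethacin 11.73, 12.21 and 12.04. The lowest levels were thus those of rosiglitazone cells, although their highest array overlapped the indomethacin and ibuprofen ranges. With ibuprofen the arrays read 12.26, 12.23 and 11.75. With GQ16 they read 12.26, 12.15 and 12.20. The DMSO arrays read 13.22, 13.19 and 13.28. The DMSO and GQ16 arrays were tightly grouped, while 1 ibuprofen array and 1 indomethacin array lay below the other two of their group. In bulk RNA, fewer cells of a type and less RNA per cell cannot be told apart.

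**Figure D1:**
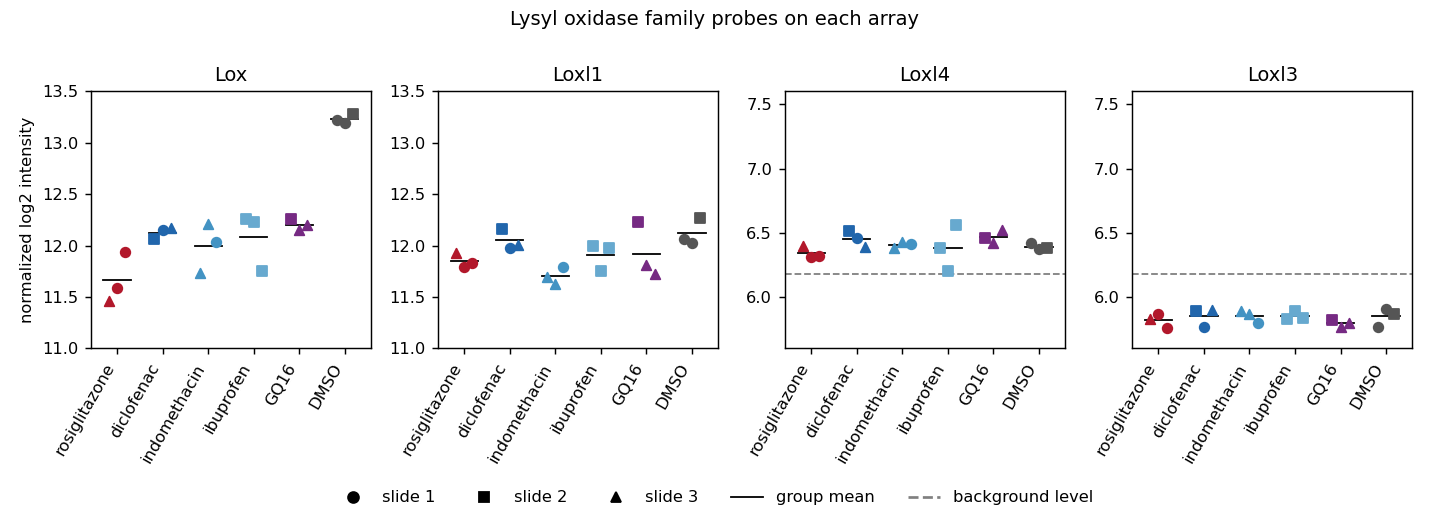
Normalized log2 intensity (vertical axis) of the tested probes of Lox, Loxl1 and Loxl4 and of the only Loxl3 probe on each array, by treatment group; marker shapes give the slide, black bars the mean of 3 arrays and dashed lines the background level of 6.18. The 15 compound arrays of Lox all sit below its 3 DMSO arrays, Loxl1 groups overlap more, and Loxl3 lies under the background level throughout.

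Group means of Lox were 11.66 ± 0.25 with rosiglitazone, 12.13 ± 0.06 with diclofenac, 12.00 ± 0.24 with indomethacin, 12.08 ± 0.29 with ibuprofen, 12.21 ± 0.06 with GQ16 and 13.23 ± 0.04 with DMSO (SD, n = 3 each). The difference from DMSO was -1.57 ± 0.14 (SE) for rosiglitazone, which puts the intensity at 33.8% of that in DMSO cells. It was -1.23 for indomethacin, -1.15 for ibuprofen, -1.10 for diclofenac and -1.02 for GQ16, each with an SE of 0.14. These correspond to 42.6%, 45.1%, 46.7% and 49.2% of the DMSO intensity. The 5 differences share the same 3 DMSO arrays. On slides that held both groups the difference was -1.44 for rosiglitazone, -1.06 and -1.21 for diclofenac, -1.16 for indomethacin, -1.20 for ibuprofen and -1.01 for GQ16. The GQ16 value and the -1.21 for diclofenac each compare 1 array with 1 DMSO array.

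Among all genes, Lox was the 3rd lowest of the 10958 differences with GQ16 and the 8th lowest with diclofenac, and the 18th with rosiglitazone, 28th with indomethacin and 33rd with ibuprofen. Genes with all 15 compound arrays below all 3 DMSO arrays numbered 219, or 2.00% of those tested. Among them Lox had the widest gap, 0.93 between its highest compound array and its lowest DMSO array. The next widest were 0.76 for Abi3bp, which encodes a matrix protein, and 0.55 for Phkg1, a catalytic subunit of phosphorylase kinase. The family was selected because Lox was low against DMSO on these arrays. A high standing of Lox follows from that choice, so its ranks and gap are a description only.

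Loxl1, the family member best known for its part in elastic fibre assembly, differed less. The arrays read 11.93, 11.79 and 11.83 with rosiglitazone, 12.16, 11.98 and 12.01 with diclofenac, and 11.69, 11.63 and 11.79 with indomethacin. They read 12.00, 11.75 and 11.98 with ibuprofen, 12.23, 11.81 and 11.72 with GQ16, and 12.06, 12.03 and 12.27 with DMSO. All rosiglitazone, indomethacin and ibuprofen arrays lay below all DMSO arrays, while the diclofenac and GQ16 ranges overlapped that of DMSO. The differences from DMSO were -0.27, -0.07, -0.41, -0.21 and -0.20 for rosiglitazone, diclofenac, indomethacin, ibuprofen and GQ16 (SE 0.13 each). The indomethacin difference was -0.25 within slide 1, and the ibuprofen difference was -0.36 within slide 2. The other Loxl1 probe stayed between 5.72 and 5.79, below background on all 18 arrays.

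Loxl4 was close to background, and each of its differences from DMSO was within 1 SE of 0. Its brightest probe ranged from 6.20 to 6.56 over the 18 arrays, with differences of -0.05, 0.07, 0.02, -0.01 and 0.08 for rosiglitazone, diclofenac, indomethacin, ibuprofen and GQ16 (SE 0.09 each). A second Loxl4 probe was above background on 15 arrays, reaching 6.48, and the remaining one on 0 arrays. The Loxl3 probe read 5.76 to 5.91 and was above background on 0 arrays, so Loxl3 was not tested. At such intensities the array gives no measure of a fall.

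Genes were called at a Benjamini-Hochberg adjusted p under 0.05 in limma. For the members this threshold on the differences from DMSO is no test, because those differences selected the family, and the counts only stand beside the background. Those past it on the lower side were 1 of 3 tested members with rosiglitazone (10.0% of all genes were called lower), with diclofenac (1.48%), with ibuprofen (5.20%) and with GQ16 (0.748%), and 2 of 3 with indomethacin (6.65%). The shares of genes with all 3 compound arrays below all 3 DMSO arrays were 15.6% for rosiglitazone, 12.2% for diclofenac, 19.9% for indomethacin, 15.8% for ibuprofen and 8.67% for GQ16. Nothing is read from the members' counts.

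**Figure D2:**
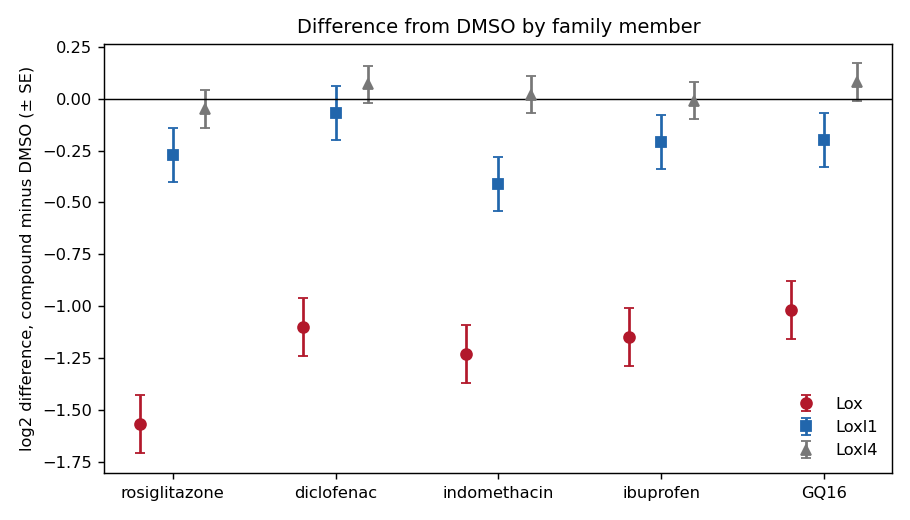
Log2 difference from DMSO (vertical axis, ± SE of the fit) of the 3 tested members for each compound, n = 3 arrays per group. Lox lies between -1.57 and -1.02, Loxl1 between -0.41 and -0.07, and Loxl4 between -0.05 and 0.08.

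Mean differences among the compounds left out DMSO and were not those that chose the family. They share the compound arrays with the differences that did. Their SEs, intervals and p-values came from the fit over all arrays, so the spread of the DMSO arrays entered them. For Lox that spread was an SD of 0.04, against 0.06 to 0.29 in the compound groups, which can lower these p-values. Lox was higher with GQ16 than with rosiglitazone, by 0.54 (95% interval 0.24 to 0.84, limma adjusted p = 0.014). The 3 GQ16 arrays lay above the 3 rosiglitazone arrays. The share of all genes without overlap was not counted for this pair, so nothing is read from that separation. Within slide 3 the difference was 0.71, between 2 GQ16 arrays and 1 rosiglitazone array. That array, rosiglitazone replicate 1, had the lowest Lox of its group and lay farthest from its group over all genes. Between GQ16 and rosiglitazone over all slides, 14.8% of all genes were called, and Lox ranked 962nd by size of difference, so calls were frequent there. Pairs of compounds numbered 10, and p-values were adjusted over genes within each pair and not over the pairs.

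The other 9 pairs were not called for Lox. Against rosiglitazone, Lox differed by 0.47 with diclofenac (0.17 to 0.77, limma adjusted p = 0.102), by 0.42 with ibuprofen (0.12 to 0.72, limma adjusted p = 0.146) and by 0.33 with indomethacin (0.04 to 0.63, limma adjusted p = 0.556). The shares of all genes called were 1.94%, 1.34% and 0.0365% for these pairs. Without rosiglitazone replicate 3, the rosiglitazone array with the highest Lox, the diclofenac difference was 0.60 and was called (limma adjusted p = 0.0453).

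Among the anti-inflammatory drugs, the Lox differences were 0.13 for diclofenac minus indomethacin (-0.17 to 0.43), 0.05 for diclofenac minus ibuprofen (-0.25 to 0.35) and -0.08 for indomethacin minus ibuprofen (-0.38 to 0.21). Background calls for these pairs were 0.183%, 0.867% and 0.265%. GQ16 differed from diclofenac by 0.08 (-0.22 to 0.38), from indomethacin by 0.21 (-0.09 to 0.51) and from ibuprofen by 0.13 (-0.17 to 0.42), with background calls of 0.0365%, 11.7% and 6.39%. The bounds of these 6 intervals reach 0.51, so differences of that size remain possible. In the order of Lox levels, rosiglitazone, indomethacin, ibuprofen, diclofenac, GQ16 and DMSO, only the step from GQ16 to DMSO separated neighbouring groups with no overlap of arrays.

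The F test of equality over the 5 compounds gave an adjusted p of 0.067 for Lox, 0.315 for Loxl1 and 0.737 for Loxl4 in limma, with 11.3% of all genes called. The Lox value was 0.0315 without rosiglitazone replicate 3 and 0.0277 without ibuprofen replicate 3, so the side of the threshold on which it fell changed with single arrays. Loxl1 and Loxl4 were called in 0 of the 10 pairs by limma. At an unadjusted p under 0.05, Loxl1 differed in 1 pair, diclofenac minus indomethacin, by 0.35 (0.08 to 0.62).

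**Figure D3:**
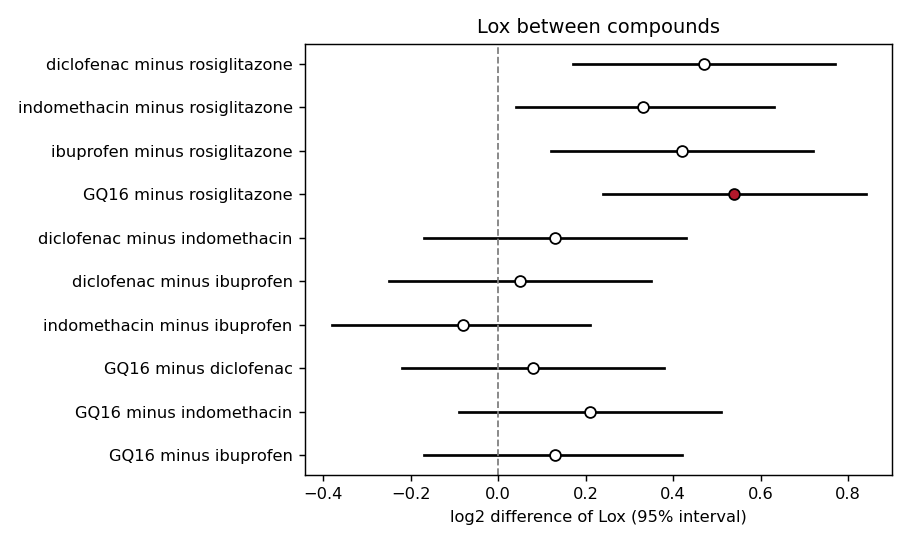
Log2 difference of Lox (horizontal axis) between each of the 10 pairs of compounds, with the 95% interval of the fit; the filled point is the called pair. GQ16 minus rosiglitazone, at 0.54, is the called pair, and the 6 pairs without rosiglitazone have intervals that include 0.

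The genes whose pattern was most like that of Lox were found by Pearson's r over the 18 arrays, which share slides and the step from compound to DMSO. The 8 highest were Abi3bp (r = 0.95), the adhesion molecule Vcam1 (0.93), the sulfate donor synthase Papss2 (0.92), Phkg1 (0.91), the secreted matrix protein Tgfbi (0.91), the cytokine Il15 (0.91), the membrane protein Emp1 (0.90) and the phosphatase Dusp14 (0.89). Over the 15 compound arrays alone r was 0.66 to 0.84 for these genes, and over deviations from group means it was 0.33 to 0.75. Both ranges come from the same 18 arrays that picked the genes, so that choice can raise them too. Having been picked for this likeness, the 8 genes share the step from compound to DMSO by selection, and their differences only describe it. These were -1.69 to -1.02 with rosiglitazone and -1.02 to -0.43 with GQ16.

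The 4 genes with the most opposite pattern were the biliverdin reductase Blvra (r = -0.89), the secreted protein dermokine, Dmkn (-0.88), the mitochondrial ribosomal protein Mrpl15 (-0.87) and the polarity protein Pard6a (-0.87). Dmkn differed from DMSO by 2.02 with rosiglitazone, 1.20 with diclofenac, 1.62 with indomethacin, 1.42 with ibuprofen and 0.96 with GQ16. Within the family, Loxl1 had r = 0.48 with Lox over 18 arrays and 0.13 over the 15 compound arrays. Loxl4 had r = -0.07 over 18 arrays.

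**Figure D4:**
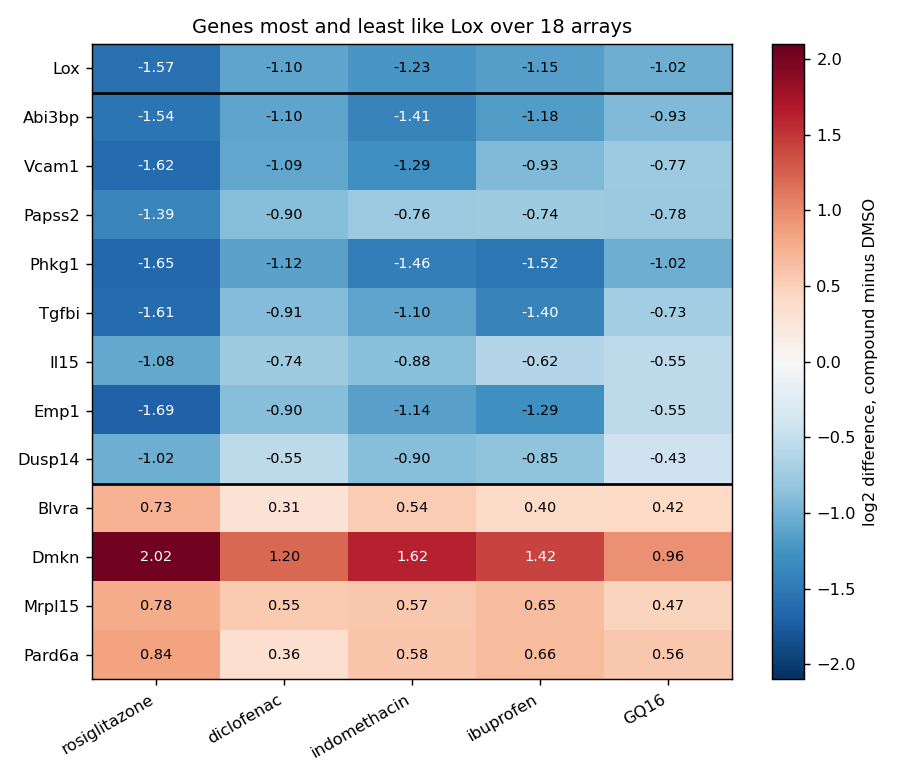
Log2 difference from DMSO of Lox (top row), the 8 genes with the highest r with Lox over 18 arrays (middle) and the 4 with the lowest (bottom), by compound; colour and printed value give the same quantity. The like genes range from -1.69 to -0.43 and the opposite genes from 0.31 to 2.02.

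Pooled together, the substrates, partners and regulators of lysyl oxidase were called lower more often than higher with 4 of the compounds and once each way with GQ16. The lists differed in this, and the regulators had few calls. The 6 lists of such genes held 85 genes, of which 59 were measured. Lower calls among the 59 were 21 with rosiglitazone (35.6%), 4 with diclofenac (6.78%), 15 with indomethacin (25.4%), 10 with ibuprofen (16.9%) and 1 with GQ16 (1.69%), to be read against the shares of all genes called lower given above. Higher calls were 0 with rosiglitazone, diclofenac, indomethacin and ibuprofen, where 8.06%, 0.621%, 3.58% and 4.26% of all genes were called higher, and 1 with GQ16 (0.684%). The median difference was -0.27 with rosiglitazone, -0.12 with diclofenac, -0.18 with indomethacin, -0.16 with ibuprofen and -0.02 with GQ16, while that of all genes was 0.00 to 0.01. A fall of matrix genes was already known from these arrays, so the lists are no independent evidence of it.

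Lower counts depended on single arrays. Without DMSO replicates 1 or 2 the rosiglitazone count was 11 or 12, the diclofenac count 1 or 2, the indomethacin count 9 in both cases, the ibuprofen count 4 or 3 and the GQ16 count 0 in both. Without DMSO replicate 3 the GQ16 count was 2, and without GQ16 replicate 1 it was 3. Without diclofenac replicates 1, 2 or 3 the diclofenac count was 1, 0 or 2, without indomethacin replicates 1 or 2 the indomethacin count was 8 or 9, and without ibuprofen replicates 1 or 2 the ibuprofen count was 5 or 3. Among the genes outside the family that the naming rule picked, calls against DMSO that held under every alternative tried were 27 of 37 with rosiglitazone, 8 of 15 with diclofenac, 21 of 33 with indomethacin, 12 of 25 with ibuprofen and 1 of 10 with GQ16. These genes include cell type markers and the genes most and least like Lox. Many were picked for large differences from DMSO, so that choice can raise the shares that held. With slide as a block the ibuprofen count of lower pathway genes was 5, and 10 of the 25 ibuprofen calls and 8 of the 10 GQ16 calls were lost.

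Among fibrillar and basement membrane collagens, 12 of 17 were measured. Of these, 8 fell with rosiglitazone (10.0% of all genes were called lower) and 2 with diclofenac (1.48%). With indomethacin 5 fell (6.65%), with ibuprofen 3 (5.20%) and with GQ16 0 (0.748%). Col4a5, a basement membrane chain, fell with rosiglitazone (-1.16 ± 0.17), diclofenac (-0.88), indomethacin (-1.13) and ibuprofen (-0.57), and differed by -0.51 with GQ16 (limma adjusted p = 0.119). Col1a1, of type I collagen, fell with rosiglitazone (-0.81 ± 0.18) and indomethacin (-1.07) and differed by -0.07 with GQ16. Col3a1, of type III collagen, fell with rosiglitazone (-0.83 ± 0.19), indomethacin (-0.79) and ibuprofen (-0.68). With the mean of its probes in place of the brightest, these 3 Col3a1 calls were lost (limma adjusted p = 0.283, 0.504 and 0.611). Col1a2 fell with indomethacin (-0.56 ± 0.17) and was not called with the other compounds. Col5a1 fell with rosiglitazone (-0.52 ± 0.12) and indomethacin (-0.44), and Col5a2 with rosiglitazone (-1.06 ± 0.21) and ibuprofen (-0.81). With slide as a block the ibuprofen calls of Col4a5 and Col5a2 and the indomethacin calls of Col5a1 and Col1a2 were lost. The Col4a5 ibuprofen call and the Col1a2 call were also lost without any 1 of the 6 arrays compared, and the Col4a5 diclofenac call without diclofenac replicate 2. The ibuprofen calls of Col3a1 and Col5a2 and the Col5a1 indomethacin call were each lost without DMSO replicates 1 or 2 and without replicate 1 of the compound, and those of Col3a1 and Col5a1 also without its replicate 2.

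Elastic fibre genes had 9 of 17 measured, elastin itself not among them. Of these, 3 fell with rosiglitazone (10.0% of all genes were called lower), 2 with indomethacin (6.65%) and 3 with ibuprofen (5.20%). With diclofenac (1.48%) and GQ16 (0.748%) 0 fell. Fbln2, a fibulin of the matrix, fell with rosiglitazone (-0.50 ± 0.15), indomethacin (-0.47) and ibuprofen (-0.56). Emilin2 fell with rosiglitazone (-0.42 ± 0.14) and indomethacin (-0.50), whereas its relative Emilin1 was not called and differed by 0.41 with diclofenac. The latent TGFβ binding proteins Ltbp1 and Ltbp4 did not exceed background in 1 whole group each and have bounds only. Ltbp1 was at least 1.22-fold lower with rosiglitazone (limma adjusted p = 0.0204) and Ltbp4 at least 1.20-fold lower with ibuprofen (limma adjusted p = 0.0112). With the mean of probes the 3 Fbln2 calls and the Ltbp1 call were lost, with the replicate block the Fbln2 indomethacin call, and with the slide block the ibuprofen calls of Fbln2 and Ltbp4. Each call given here for these 4 genes was lost without DMSO replicate 2 and, except that of Ltbp4, without DMSO replicate 1. Each was also lost without at least 1 array of its compound.

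Genes for processing, docking and copper supply had 8 of 14 measured. Bmp1, which cleaves the Lox proenzyme, fell with rosiglitazone (-0.82 ± 0.14, limma adjusted p = 0.000194), indomethacin (-0.67) and ibuprofen (-0.57), and differed by -0.27 with diclofenac and 0.03 with GQ16. Fn1, fibronectin, fell with rosiglitazone (-1.33 ± 0.21), diclofenac (-0.84) and indomethacin (-1.21), and differed by -0.63 with ibuprofen and -0.68 with GQ16 (limma adjusted p = 0.0557 and 0.091). Pcolce2, an enhancer of procollagen cleavage, was called lower with each of the 5 compounds, at -0.97, -0.59, -0.85, -0.73 and -0.75 for rosiglitazone, diclofenac, indomethacin, ibuprofen and GQ16 (SE 0.14). The GQ16 call of Pcolce2 was lost without DMSO replicates 1 or 2, and the diclofenac calls of Pcolce2 and Fn1 without any 1 diclofenac array. The Fn1 diclofenac call was also lost without DMSO replicates 1 or 3, and that of Pcolce2 without DMSO replicates 1 or 2. Its relative Pcolce fell with rosiglitazone (-0.75 ± 0.21, lost without rosiglitazone replicate 2 or DMSO replicates 1 or 2) and indomethacin (-1.07). The Bmp1 ibuprofen call was lost without ibuprofen replicate 2. The copper pump Atp7a fell with ibuprofen (-0.74 ± 0.22, lost with the slide block and without ibuprofen replicates 2 or 3 or DMSO replicates 1 or 2). The copper chaperone Atox1 rose with GQ16 (0.54 ± 0.13, limma adjusted p = 0.0358, lost with the slide block and without any 1 of the 6 arrays), and periostin, Postn, was not called with any compound (-0.36 to -0.07).

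Collagen modification and folding had 14 of 18 genes measured. Of these, 4 fell with rosiglitazone (10.0% of all genes were called lower) and 2 with indomethacin (6.65%). With diclofenac (1.48%), ibuprofen (5.20%) and GQ16 (0.748%) 0 fell. Crtap, a subunit of the prolyl 3-hydroxylation complex, fell with rosiglitazone (-0.53 ± 0.13) and indomethacin (-0.70). P3h3 fell with rosiglitazone (-0.45 ± 0.13) and indomethacin (-0.44), and the lysyl hydroxylase Plod1 with rosiglitazone (-0.58 ± 0.19). The P3h3 and Plod1 calls were lost without DMSO replicates 1 or 2. They were also lost without rosiglitazone replicates 2 or 3 (P3h3) or 1 or 3 (Plod1), and the P3h3 indomethacin call without any 1 indomethacin array. Plod2, whose hydroxylysines feed into Lox cross-links, was not called with any compound and ranged from -0.62 with GQ16 to -0.16 with ibuprofen. The collagen-folding isomerase Ppib was not called and ranged from 0.11 to 0.43.

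Known upstream regulators of Lox had 13 of 16 genes measured. Of the 13, 1 fell with rosiglitazone (10.0% of all genes were called lower), 2 with indomethacin (6.65%) and 1 with ibuprofen (5.20%). With diclofenac (1.48%) and GQ16 (0.748%) 0 fell. With at most 2 of 13 genes called, nothing is read from these counts about the regulators as a group. Ccn2, a matricellular protein, fell with rosiglitazone (-0.53 ± 0.17, lost without rosiglitazone replicates 2 or 3 or DMSO replicate 1). It also fell with indomethacin (-0.52, lost with the replicate block, with the mean of probes and without any 1 indomethacin array or DMSO replicates 1 or 2). Tgfb1, the growth factor best known for inducing Lox, fell with indomethacin (-0.69 ± 0.17, lost without indomethacin replicate 1) and differed by -0.34, -0.53, -0.02 and 0.20 with rosiglitazone, diclofenac, ibuprofen and GQ16. Its receptor Tgfbr2 fell with ibuprofen (-0.60 ± 0.11, lost with the mean of its probes at a limma adjusted p of 0.146). Hif1a, the hypoxia factor, was not called with any compound (-0.22 to 0.29). Among the other copper amine oxidases, Aoc3, the membrane enzyme abundant on adipocytes, fell with rosiglitazone (-0.75 ± 0.18, limma adjusted p = 0.00439), while Aoc1 and Aoc2 were not called.

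**Figure D5:**
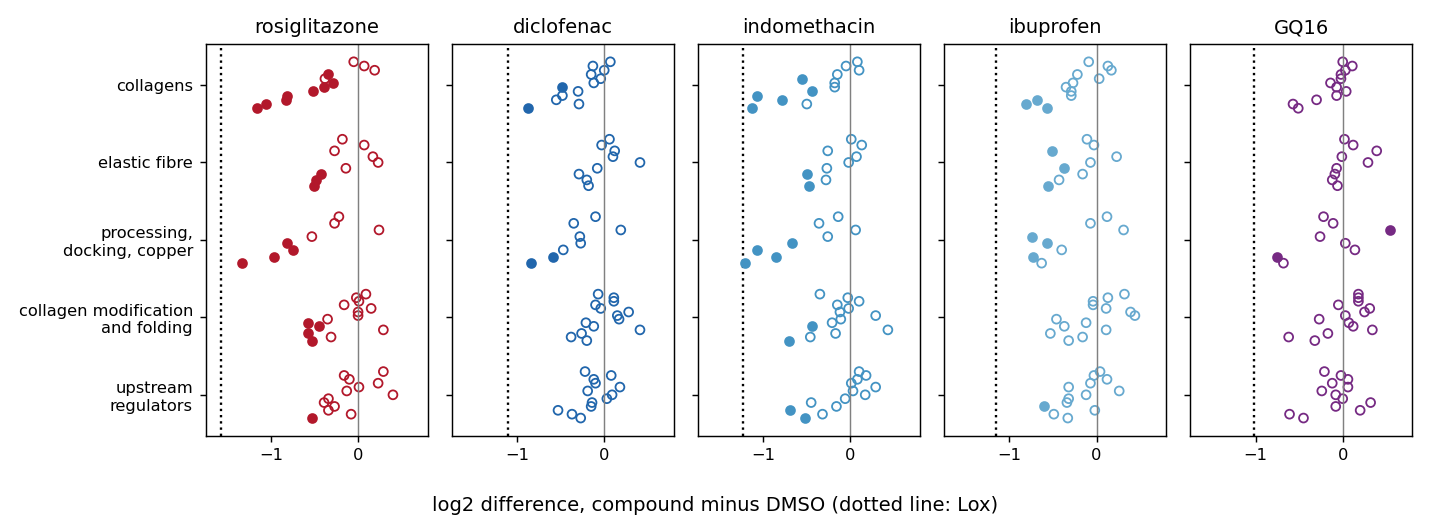
Log2 difference from DMSO (horizontal axis) of each measured gene of 5 lists, by compound; filled points are called (limma adjusted p under 0.05), open points are not, and the dotted line marks Lox. The 3 other copper amine oxidases are not drawn. All filled points lie left of 0 for rosiglitazone, diclofenac, indomethacin and ibuprofen, and GQ16 has 1 filled point on either side.

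Between GQ16 and rosiglitazone directly, a comparison chosen for these lists after their values were seen, 13 of the 59 genes were higher with GQ16 (22.0%, against 8.74% of all genes) and 1, Arnt, was lower (6.04% of all genes). The median difference was 0.17, against 0.02 for all genes. Bmp1 was higher by 0.86 ± 0.14 (limma adjusted p = 0.000221), Pcolce by 0.89 ± 0.21, Col1a1 by 0.74 ± 0.18, Tgfb3 by 0.70 ± 0.17 and Col5a1 by 0.57 ± 0.12. Fn1 was higher by 0.64 ± 0.21 (limma adjusted p = 0.0382). The Fn1 call was lost with slide as a fixed or a random block, with arrays at one median, with no filter, with the mean of probes, without rosiglitazone replicate 2 and without GQ16 replicates 1 or 2. The Arnt call (limma adjusted p = 0.0494) was lost in 8 of 16 settings, among them the replicate block, the mean of probes and leaving out rosiglitazone replicate 1 or GQ16 replicates 2 or 3. The Tgfb3 call was lost without GQ16 replicate 2.

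Preadipocyte and fibroblast markers had lower calls with 4 of the 5 compounds. Of 12 markers 10 were measured. Lower calls were 6 with rosiglitazone (10.0% of all genes were called lower) and 1 with diclofenac (1.48%). They were 4 with indomethacin (6.65%), 5 with ibuprofen (5.20%) and 0 with GQ16 (0.748%). Few of all genes were called lower with GQ16, so nothing is read from its 0. The mean level of these markers per array was 9.32 to 9.64 with rosiglitazone, 9.62 to 9.80 with diclofenac, 9.49 to 9.57 with indomethacin, 9.48 to 9.63 with ibuprofen, 9.72 to 10.06 with GQ16 and 9.82 to 10.15 with DMSO. The GQ16 range overlapped that of DMSO, and the ranges of the other 4 compounds did not. The part of these markers in the Lox values was not tested. The proteoglycan Dcn fell with rosiglitazone (-0.66 ± 0.16), indomethacin (-0.79) and ibuprofen (-1.02), and the surface marker Thy1 with rosiglitazone (-0.78 ± 0.18) and indomethacin (-0.84). Gas6, a secreted ligand of receptor kinases, fell with rosiglitazone (-1.01 ± 0.22) and indomethacin (-0.99). The intermediate filament gene Vim fell with rosiglitazone (-0.71 ± 0.15), diclofenac (-0.56) and indomethacin (-0.63), and the growth factor receptor Pdgfra with rosiglitazone (-0.69 ± 0.22) and ibuprofen (-0.94). Both Pdgfra calls were lost with the mean of probes, without DMSO replicates 1 or 2 and without replicate 1 of the compound, and the ibuprofen call also with the slide block. The Vim indomethacin call was lost with the mean of probes, and its diclofenac call also with the replicate block, without diclofenac replicates 1 or 2 and without any 1 DMSO array.

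Adipocyte markers had a mean level of 11.61 to 11.79 over all arrays. Of 11 measured, 2 fell and 1 rose with rosiglitazone (10.0% and 8.06% of all genes were called lower and higher). With ibuprofen 1 fell and 1 rose (5.20% and 4.26%). Only lower calls were made with diclofenac (1, against 1.48% of all genes), indomethacin (2, 6.65%) and GQ16 (1, 0.748%). Pparg itself fell with rosiglitazone (-0.76 ± 0.12), indomethacin (-0.67, lost with the mean of its probes) and ibuprofen (-0.40, lost with the slide block and without any 1 ibuprofen array or DMSO replicates 1 or 3). The glucose transporter Slc2a4 fell with rosiglitazone (-0.69 ± 0.15), diclofenac (-0.66), indomethacin (-0.67) and GQ16 (-0.59). Its GQ16 call (limma adjusted p = 0.0489) was lost in 10 of 16 settings, among them both slide blocks, the replicate block and leaving out GQ16 replicates 2 or 3 or any 1 DMSO array. Its diclofenac call was lost without diclofenac replicates 1 or 2 or DMSO replicates 1 or 3. The lipid droplet gene Plin1 rose with ibuprofen (0.51 ± 0.15), and the lipase Pnpla2 rose with rosiglitazone (0.29 ± 0.09). Both of these calls were lost without DMSO replicates 1 or 2. That of Plin1 was also lost with the slide block and without ibuprofen replicates 1 or 2, and that of Pnpla2 without rosiglitazone replicates 2 or 3. The fatty acid carrier Fabp4 (0.27 to 0.63) and the lipid droplet gene Cidec (0.00 to 0.45) were not called with any compound.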

How the data were processed

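The deposited table gives the authors' normalized log2 intensity of each probe on each array. Per the submitters' processing notes, GenomeStudio and lumi were used, in versions not given in the sources used here. Base 2 was inferred from the highest value. All 18 arrays held the same sorted values (quantile normalization), which hides a shift shared by most transcripts, and dim probes are compressed, so their differences are understated. A non-normalized table was not used, because 36 columns of values could not be matched to samples.

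Of 45281 probes, 34885 had 1 gene symbol, and 34807 matched a RefSeq table (GRCm38.p6), with 0 symbols changed. Background was 6.18, the 95th percentile of the 1526 probes of trace amine, vomeronasal and olfactory receptor genes. Of all 45281 probes, 21132 lay above it on at least 3 arrays. Those of them with 1 gene symbol were kept, and the brightest stood for its gene, giving 10958 genes. A gene below background on all 3 arrays of a group has a bound only.

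One limma 3.58.1 fit in R 4.3.3 over 18 arrays had 1 mean per group, 12 residual and 11.9 prior degrees of freedom and an intensity trend, and was tested on simulated data. P-values are two-sided and Benjamini-Hochberg adjusted over all genes. The number of arrays limits the precision.

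The members and gene lists were chosen with earlier results of these data known. Named genes were all members, the 8 most and 4 least like Lox by r, and from each list up to 5 genes with the largest mean difference from DMSO, any called against its list's direction, and Bmp1, Fn1, Postn, Col1a1, Col1a2, Col3a1, Eln, Tgfb1, Hif1a and Aoc3. Alternatives covered slide and replicate blocks, each array left out, probe filters, probe averaging, array medians and the variance prior.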

Additional observations from a re-analysis of the deposited data

How the results depend on the processing

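Signs of named genes' calls that were lost under an alternative were not checked. No called difference of a family member, and no named gene's call that held, changed sign under any alternative run. Several values near 0 that were not called did, among them these. Loxl4 minus DMSO was -0.02 to 0.05 for indomethacin, Loxl1 minus DMSO was -0.12 to 0.01 for diclofenac, and diclofenac minus ibuprofen for Lox was -0.12 to 0.14. Over all alternatives, Lox minus DMSO was -1.70 to -1.44 for rosiglitazone, -1.21 to -1.06 for diclofenac, -1.34 to -1.10 for indomethacin, -1.24 to -0.98 for ibuprofen and -1.05 to -0.95 for GQ16. Lox was called higher with GQ16 than with rosiglitazone in all 28 settings (0.44 to 0.68, limma adjusted p 0.00548 to 0.0494). These settings include leaving out single arrays of the other groups, which cannot change this difference and alters only its spread and p-value. With slide as a block, Lox minus DMSO for GQ16 was -0.95, Loxl1 was -0.30 for indomethacin and -0.38 for ibuprofen, and the lower count of pathway genes for ibuprofen was 5. Within single slides Lox was -1.21 for diclofenac (slide 2), and Loxl1 was -0.25 for indomethacin and -0.36 for ibuprofen. Without DMSO replicate 3 and rosiglitazone replicate 1 together, pathway genes lower were 19 for ibuprofen and 3 for GQ16. With no filter they were 13 for rosiglitazone, 1 for diclofenac and 5 for ibuprofen, and with the mean of probes 2 for GQ16. With single arrays left out these counts were 11 to 22 for rosiglitazone, 0 to 3 for diclofenac, 8 to 16 for indomethacin, 3 to 14 for ibuprofen and 0 to 3 for GQ16, the Lox F test gave adjusted p-values of 0.0277 to 0.19, and diclofenac minus rosiglitazone for Lox was 0.37 to 0.60. By Spearman's rho, 3 of the 8 genes most like Lox stayed among the 8. Genes called over all alternatives ranged from 1198 to 2417 for rosiglitazone, 93 to 487 for diclofenac, 521 to 1694 for indomethacin, 380 to 2340 for ibuprofen, 11 to 681 for GQ16 and 743 to 2598 for the F test; the cause was not tested. With the replicate block, Lox differed by 0.54 between GQ16 and rosiglitazone (limma adjusted p = 0.0176), and 1928 genes were called for rosiglitazone. Of the named genes' calls against DMSO, the replicate block lost 0 of 37 for rosiglitazone, 1 of 15 for diclofenac, 2 of 33 for indomethacin, 1 of 25 for ibuprofen and 1 of 10 for GQ16. The slide block lost 0, 1, 2, 10 and 8 of these calls in the same order. Deviations of same-numbered arrays had a median correlation of -0.0142 over 45 pairs, of which 10 were over 0.1. For arrays of different number it was 0.0068 over 90 pairs, of which 23 were over 0.1. With 3 arrays per group this cannot exclude a pairing by number, which the labels do not give. Background correction of the non-normalized table was not run, since its columns could not be mapped. Array medians over the genes tested spanned 0.0645. Dim probes such as those of Loxl3 and Loxl4 limit what can be seen of those genes.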
